A study of Mus musculus with 70 samples.

Results

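Libraries labelled ILCP were compared with libraries labelled CILP, both sorted from the bone marrow of wild-type mice. The comparison held 3 ILCP and 7 CILP libraries, 10 of the 66 libraries of the series once technical repeats were added together, and its members were chosen by genotype and cell type label. Wild-type ILC2P (progenitors of group 2 innate lymphoid cells, 8 libraries) were set beside them. CILP stands for common innate lymphoid progenitors. Each library was made from 100 sorted cells by CEL-seq, a method that copies poly(A) RNA by in vitro transcription and sequences a stretch near each transcript's 3′ end. These 3 groups were labelled WT, and the labels used here name no treatment. The fit across all genes also held wild-type CLP and α4β7+ CLP and libraries from Id2-/- and TCF7-/- mice, which share 1 estimate of the spread with them, and 1 Id2-/- ILCP library is described at the end. The labels used here give neither strain nor age, and they leave unsaid whether libraries of a group were made from different mice. The p-values therefore measure the spread between these libraries, which may be technical. Neither do they tie the name ILCP to a sort gate. The series' design text names a Sca1+ CILP population that no cell type label matches, so whether the ILCP cells were sorted on Sca-1, the product of Ly6a, cannot be told from the labels.

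Innate lymphoid cells are lymphocytes without rearranged antigen receptors that act in tissues through cytokines. Their bone marrow progenitors pass through stages that carry transcription factors such as Id2, Tox, Zbtb16 (PLZF), Gata3 and Tcf7 (TCF-1), and then commit to groups that resemble the helper and cytotoxic arms of T cells. Group 2 cells depend on Gata3, respond to IL-33, IL-25 and IL-2, and release type 2 cytokines.

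The ILCP libraries held 283547, 81093 and 110341 counts (replicates 1, 2 and 3), and the CILP libraries held between 42266 and 624668 (median 149467). Replicates 1 and 2 of ILCP and replicates 1 to 4 of CILP came from batch 2. Replicate 3 of ILCP and replicates 5 to 7 of CILP came from batch 1. Between 5357 and 8769 genes had counts in an ILCP library, against 5754 to 10812 in a CILP library. The ILCP libraries differed from each other by more than sampling noise (chi-square per degree of freedom between 9.345 and 13.88 over 3 pairs), as did the CILP libraries (3.62 to 13.01 over 21 pairs). The 12 control wells that received spike-in RNA alone held 51 to 9439 gene counts, and 14 of the 38 named genes that passed between ILCP and CILP had counts in at least 1 well. The most were 28 counts of Igfbp4, 16 of Vcam1, 14 of Il2ra, 12 of Ppp1r15a, 11 each of Rnf128 and Nfkbia, 10 of Lztfl1 and 8 each of Il1rl1 and Samhd1, summed over the wells. Junb had 4, Ly6a and Dmtn had 2 each, and Tmsb15a and Fcer1g had 1 each. Levels are given as CPM, a gene's counts divided by the library's scaled total and brought to a common size.

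In the ILCP libraries, 34 genes were higher and 7 lower than in CILP, at a Benjamini-Hochberg adjusted p under 0.05 in edgeR's quasi-likelihood test over 10972 genes. These are 0.31% and 0.0638% of the genes tested, and 0.374% in either direction. In simulated data (described below) the fit called lowered genes less often than genes raised by the same fold. The numbers by direction therefore cannot be compared directly. Rnf128, Il1rl1, Il2ra, Ly6a, Samhd1 and Cysltr1 had the smallest adjusted p among the higher genes and were present in every ILCP library. Of these, Il1rl1, Il2ra and Cysltr1 encode receptors known from group 2 cells. Igfbp4, Plac8, Bcl2 and Tmsb15a were lower. Within batch 1, which holds 1 ILCP library, 17 genes passed as higher and 9 as lower, with 6 and 2 within batch 2. The lone ILCP library of batch 1 is assumed there to vary like the other groups, so its counts hold no replicate check. In populations of sorted cells, fewer cells of a type and less RNA per cell cannot be told apart.

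The 3 ILCP libraries were not alike, and the counts of genes rest on them unequally. Among the 34 higher genes, 18 had counts in all 3 ILCP libraries, 7 in a pair of them and 9 in 1 alone. The highest value was in replicate 2 for 22 of them, in replicate 1 for 8 and in replicate 3 for 4. Without replicate 1, 36 genes were higher and 7 lower, and 26 of the 34 and 4 of the 7 were among them. Without replicate 2, 17 were higher and 2 lower, with 16 of the 34 and 2 of the 7 among them. Without replicate 3, 48 were higher and 4 lower, with 31 of the 34 and 3 of the 7 among them. Every ILCP library lay above every CILP library for 12 of the 34, and below for 5 of the 7. Over all genes tested this held for 1.03% and 1.01%.

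**Figure D1:**
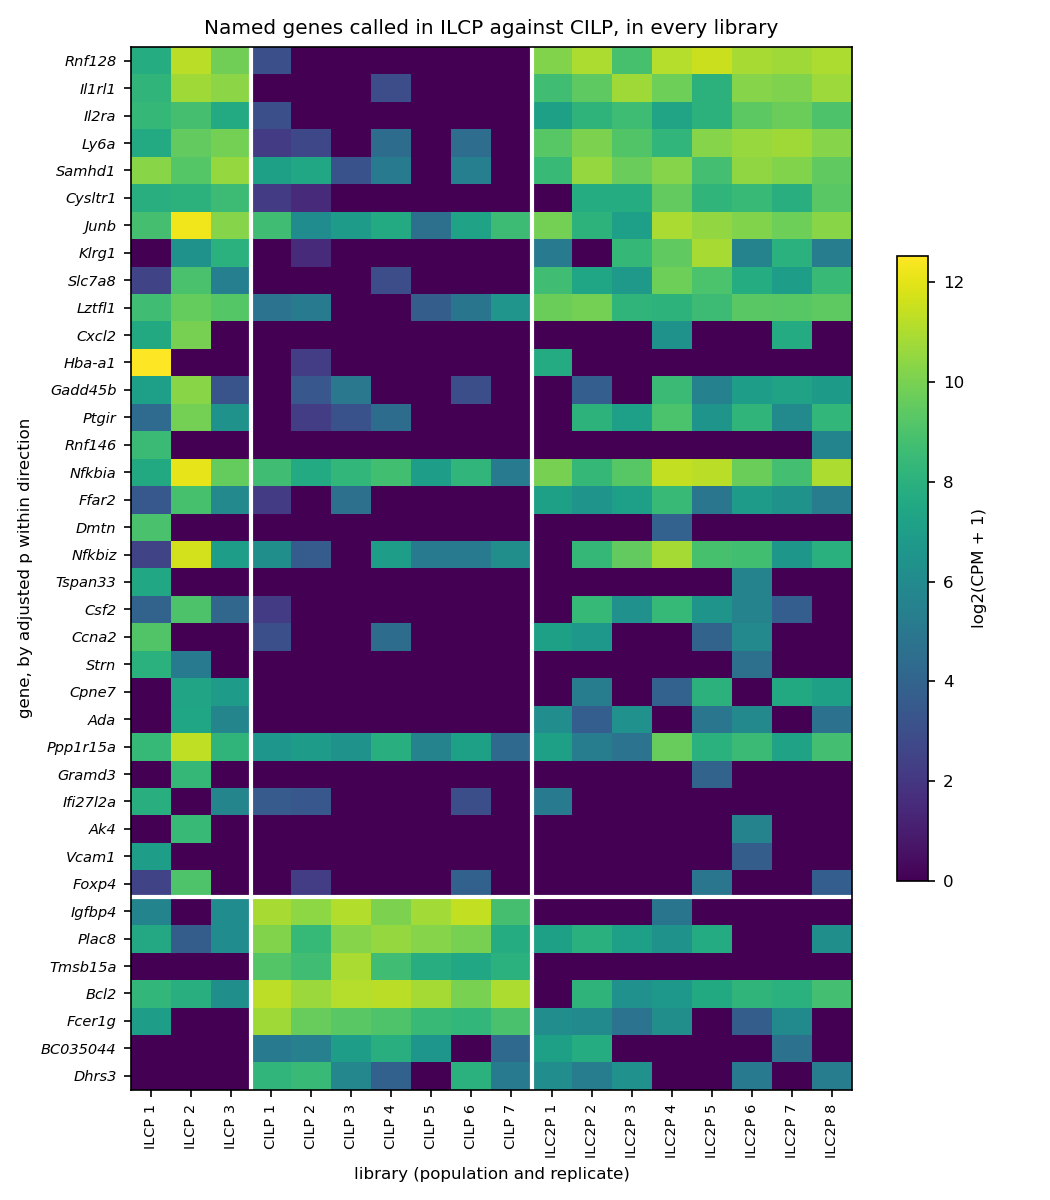
Levels of the named genes that passed in ILCP against CILP, with genes down the page and libraries across it, ILCP first, then CILP and ILC2P. Colour gives log2(CPM + 1). Rnf128, Il1rl1, Il2ra, Ly6a, Samhd1 and Cysltr1 are above 0 in all 3 ILCP libraries, while Hba-a1, Dmtn, Tspan33 and Ccna2 are above 0 in replicate 1 alone of the ILCP libraries.

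Receptors are described first. Il1rl1 (Entrez 17082, chr1:40404864-40465418), which encodes ST2, the receptor chain that binds IL-33, had 296, 1708 and 1304 CPM in ILCP replicates 1, 2 and 3. In CILP it had a single count, 6.9 CPM in replicate 4, and 0 in the other libraries. The groups did not overlap. Over pooled counts the level was 1189-fold higher in ILCP (95% counting interval 212 to 47110), with an adjusted p of 5.766e-12 in edgeR. Il1rl1 was higher in both batches alone, by 10.47 on the log2 scale in batch 1 and by 9.04 in batch 2. ILC2P averaged 991 ± 537 CPM (SD, n = 8).

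Il2ra (Entrez 16184), the alpha chain (CD25) that makes the IL-2 receptor bind with high affinity, had 326, 460 and 202 CPM in ILCP. In CILP it had 7.4 CPM in replicate 1 and 0 in the rest. All 3 ILCP libraries stood above all of CILP, and the spread among them was small beside the gap. The pooled level was 214-fold higher in ILCP (95% counting interval 58.0 to 1785, adjusted p = 1.103e-05). ILC2P averaged 407 ± 245 CPM.

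Cysltr1 (Entrez 58861), a receptor for cysteinyl leukotrienes, had the narrowest spread among these receptors, with 242, 267 and 387 CPM in ILCP. CILP held 3.7 CPM in replicate 1, 1.9 in replicate 2 and 0 in the others. The pooled ratio was 196 (95% counting interval 52.9 to 1633, adjusted p = 1.203e-04). ILC2P averaged 339 ± 245 CPM. None of the control wells held a count of Cysltr1, while they held some of Il1rl1 and Il2ra, as given above.

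Klrg1, an inhibitory receptor found on mature group 2 and natural killer (NK) cells, had 0, 84.8 and 252 CPM in ILCP, against 1.9 CPM in CILP replicate 2 and 0 elsewhere. Replicate 1 of ILCP thus lay with CILP. Its call (adjusted p = 3.643e-03) was lost without ILCP replicate 3 (0.205), and in DESeq2 (0.387). Csf2, the gene of the cytokine GM-CSF, had 14.8, 521 and 16.8 CPM in ILCP and at most 3.7 in CILP, and its call (0.0216) was lost without replicate 2 (0.655).

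A list of genes of group 2 cells was drawn from general knowledge of the field. Of its 17 members tested, 5 passed as higher (Il1rl1, Il2ra, Cysltr1, Klrg1 and Csf2) and none as lower, against 0.374% of all genes in either direction. The median fitted log2 difference of the 17 was 1.58, against -0.27 over all genes tested. Together the listed genes took 0.527%, 0.745% and 1.038% of the counts in ILCP replicates 1, 2 and 3, and 0.304% to 0.582% in CILP. The exact binomial 95% intervals of the 3 ILCP shares ran from 0.501% to 0.555%, from 0.687% to 0.806% and from 0.979% to 1.099%. Replicate 1 of ILCP lay within the CILP range.

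Other genes of the group did not pass or could not be tested, which does not show that their levels were the same. Gata3, the factor that group 2 cells require, had 2859, 2060 and 4080 CPM in ILCP and 912 to 4180 in CILP (log2 difference 0.63 ± 1.05 SE, adjusted p = 0.912). Il17rb, the IL-25 receptor chain, had 1358, 206 and 732 CPM in ILCP and 107 to 228 in CILP (log2 2.23 ± 0.88, adjusted p = 0.335). Il18r1, a chain of the IL-18 receptor, had 262, 0 and 278 CPM in ILCP and 344 to 992 in CILP, a difference in the other direction that did not pass (adjusted p = 0.404). The cytokine genes Il13 and Il5 had no counts in ILCP, and were too low to be tested.

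**Figure D2:**
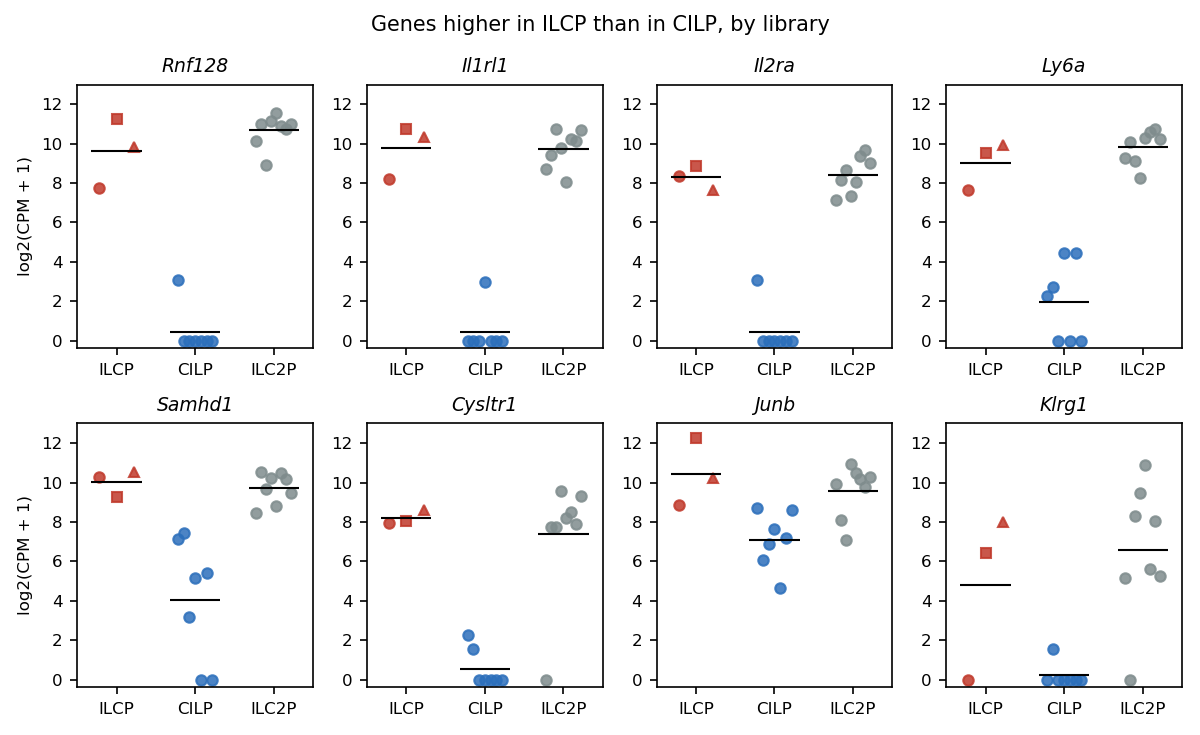
Levels of the 8 genes of smallest adjusted p among those higher in ILCP, as log2(CPM + 1) on the vertical axis, for ILCP (circle replicate 1, square replicate 2, triangle replicate 3), CILP and ILC2P. Black lines are means of log2(CPM + 1). ILCP does not overlap CILP in any panel except Klrg1, where replicate 1 has no counts, and in Il1rl1 ILCP runs from 296 to 1708 CPM against at most 6.9 in CILP.

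Rnf128 (Entrez 66889, chrX:139563340-139673145) had the smallest adjusted p of all. It encodes GRAIL, a ubiquitin ligase known for holding T cells in an unresponsive state. ILCP had 217, 2435 and 909 CPM, and CILP had 7.4 CPM in replicate 1 and 0 in 6 libraries. No ILCP library came near CILP, although replicate 1 was far below the other two. The pooled ratio was 590 (95% counting interval 162 to 4889, adjusted p = 2.317e-13). ILC2P averaged 1821 ± 754 CPM.

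Ly6a (Entrez 110454, chr15:74994877-74998031), the gene of the surface antigen Sca-1, had 202, 727 and 959 CPM in ILCP. In CILP it ran from 0 to 21.0 CPM with a median of 3.7. The groups did not overlap, and the fitted log2 difference was 6.15 ± 0.92 (SE, adjusted p = 1.392e-05). ILC2P averaged 1033 ± 496 CPM. Ly6a and Il1rl1 were used as markers to look at the ILCP libraries, and both were present in each of the 3. The labels themselves give no marker. Of the 6 tested genes of the Ly6 family, which share similar sequence, Ly6a alone passed, against 0.374% of all genes tested. Ly6c1 had 4.9, 364 and 126 CPM in ILCP and 0 to 23.8 in CILP (adjusted p = 0.0646).

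Samhd1 (Entrez 56045), an enzyme that breaks down deoxynucleotides and restricts retroviruses, had 1254, 606 and 1498 CPM in ILCP and 0 to 174 in CILP (median 34.4). The log2 difference was 4.13 ± 0.70, with an adjusted p of 8.286e-05. Lztfl1, which regulates protein traffic to cilia, had 415, 751 and 597 CPM in ILCP and 0 to 91.5 in CILP (log2 4.47 ± 0.93, adjusted p = 4.068e-03). Both genes separated the groups completely. ILC2P averaged 954 ± 434 CPM of Samhd1 and 588 ± 249 of Lztfl1.

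Among the genes higher in ILCP, Rnf128, Il1rl1, Il2ra, Ly6a, Samhd1, Cysltr1 and Lztfl1 passed in each of the 10 fits that left out 1 ILCP or CILP library. Igfbp4 and Plac8 did so among the lower ones. These 9 were the only ones of the 38 named genes called to pass in all 10 fits. Calls of the other genes named were lost in at least 1 of them, except Rnf146, which passed in 9 and had too few counts to be tested without ILCP replicate 1.

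Slc7a8, a transporter of neutral amino acids, was carried by replicate 2. ILCP had 4.9, 485 and 42.1 CPM against 6.9 CPM in CILP replicate 4 and 0 elsewhere, and the call (adjusted p = 3.643e-03) was lost without replicate 2 (0.571). Ptgir, the prostacyclin receptor, had 19.8, 981 and 84.1 CPM in ILCP and at most 20.7 in CILP. Ffar2, a receptor for short-chain fatty acids, had 9.9, 473 and 58.9 CPM in ILCP and at most 23.8 in CILP. Both passed with replicate 2 (0.00976 and 0.0157) and not without it (0.708 and 0.599). Cysltr1 and Ptgir were the members called among 9 tested genes of eicosanoid synthesis and reception, against 0.374% of all genes tested.

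Immediate early genes, which cells switch on within minutes of a stimulus, differed most in replicate 2. Their share of all counts was 0.601%, 6.710% and 1.431% in ILCP replicates 1, 2 and 3, and 0.264% to 0.757% in CILP. The exact binomial 95% interval for replicate 2 was 6.538% to 6.884%. Replicate 2 stood far above every other library of either group, replicate 3 stood above the CILP range and replicate 1 lay within it. In ILC2P the share ran from 0.407% to 4.618%. Of 22 genes tested, Junb, Nfkbia and Nfkbiz passed as higher and none as lower, against 0.374% of all genes tested in either direction. The median log2 difference was 2.25, against -0.27 over all genes tested. Fitted values were above 0 for 21 of the 22, against 41.5% of all genes tested.

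Junb, a subunit of the AP-1 transcription factor, had 459, 4895 and 1211 CPM in ILCP and 23.7 to 413 in CILP, with no overlap. The log2 difference of 3.51 ± 0.69 (adjusted p = 2.626e-03) did not pass without replicate 2 (0.537). Nfkbia, which encodes the NF-κB inhibitor IκBα, had 193, 4362 and 749 CPM in ILCP and 36.6 to 420 in CILP, so that replicate 1 lay within CILP (adjusted p = 0.0127, and 0.803 without replicate 2). Nfkbiz, the gene of the nuclear protein IκBζ, had 4.9, 3271 and 126 CPM in ILCP and 0 to 124 in CILP. It too rested on replicate 2 (adjusted p = 0.0183, and 0.962 without it). Fosb, another AP-1 gene, did not overlap either, with 474 to 4217 CPM in ILCP and 55.8 to 322 in CILP, but missed the threshold (adjusted p = 0.202). All ILCP libraries lay above all CILP libraries for 1.03% of genes tested.

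Other stress and activation genes were also highest in replicate 2. Gadd45b, a growth arrest and DNA damage gene, had 133, 1284 and 8.4 CPM in ILCP and at most 31.7 in CILP. Ppp1r15a (GADD34), which restores translation after stress, had 331, 2593 and 295 CPM in ILCP and 18.3 to 241 in CILP. The chemokine gene Cxcl2 had 198, 1006 and 0 CPM in ILCP and 0 in all CILP libraries, at least 137-fold higher against 3 counts over the CILP group. All 3 passed (adjusted p of 0.00976, 0.0419 and 4.925e-03) and none did without replicate 2 (0.681, 0.770 and 0.134). Heat shock genes did not share this pattern. Their share of counts was 0.1305%, 0.1467% and 0.2909% in ILCP replicates 1, 2 and 3, and 0.2881% to 0.5145% in CILP. None of the 9 tested passed, against 0.374% of all genes tested. All 9 had fitted values below 0, where 41.5% of all genes tested were above 0. Their median was -1.03, against -0.27 over all genes tested. The part of replicate 2's high immediate early share in these results was not tested.

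**Figure D3:**
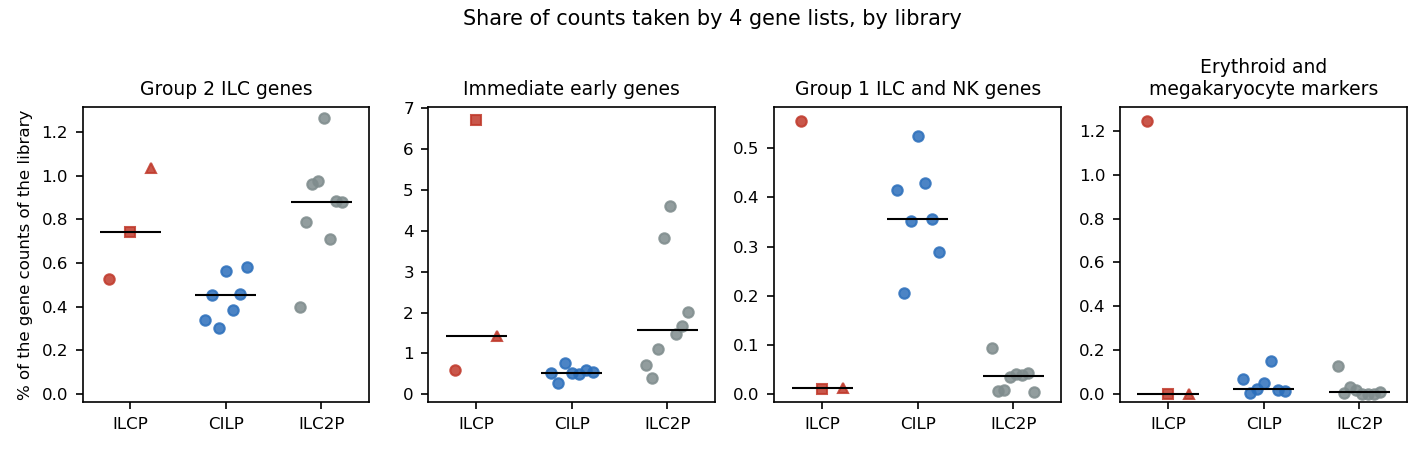
Percent of a library's counts taken by 4 gene lists, for ILCP (circle replicate 1, square replicate 2, triangle replicate 3), CILP and ILC2P, with the median as a black line. Replicate 2 of ILCP is at 6.710% for immediate early genes, and replicate 1 is at 1.246% for erythroid and megakaryocyte markers, where the other 2 ILCP libraries are at 0.001% or below.

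Replicate 1 of ILCP stood apart in another way. Markers of red cell and platelet precursors took 1.246% of its counts (exact binomial 95% interval 1.206% to 1.288%), against 0 of 81093 counts in replicate 2 and 1 of 110341 in replicate 3. In CILP they took 0.006% to 0.152%. The globin genes Hba-a1 and Hba-a2 gave 1203 and 1705 of the 3534 marker counts of replicate 1. The platelet genes Pf4 and Gp1bb had no counts in ILCP. Itga2b, another platelet gene, had 6 counts in ILCP and 121 in CILP, and the red cell gene Car1 had 0 and 130. Hba-a1, an alpha globin gene whose sequence is shared with Hba-a2, had 5940, 0 and 0 CPM in ILCP and at most 3.8 in CILP. Hba-a2 reached 8419 CPM in ILCP and 724 CPM in CILP, and did not pass (adjusted p = 0.116 in edgeR). Hba-a1 passed (adjusted p = 4.925e-03) on replicate 1 alone. Without that library its fitted difference was -0.46 on the log2 scale, with no counts in ILCP and 2 in CILP. Dmtn, a red cell membrane skeleton gene, had 484, 0 and 0 CPM (adjusted p = 0.0183), and Tspan33, a tetraspanin gene, had 178, 0 and 0 (0.0187), with no counts of either in CILP. For Tspan33 the fitted difference was -0.74 without replicate 1, but both groups then had no counts, so its sign carries no meaning. Hba-a1 was the only called gene of the 15 tested markers, against 0.374% of all genes tested. The median of the 15 was 3.36, against -0.27 over all genes tested, with 10 fitted values above 0 and 5 below.

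Replicate 1 also carried Ccna2 and Vcam1 on its own. Ccna2, the gene of cyclin A2, had 553, 0 and 0 CPM in ILCP and at most 20.7 in CILP (adjusted p = 0.0237). Vcam1, an adhesion molecule, had 128, 0 and 0 CPM and no counts in CILP (0.0446). Control wells held counts of Vcam1 too, as given above. Without replicate 1 the fitted differences of Ccna2 and Vcam1 were -2.65 and -0.63. For Ccna2 that value set no counts in ILCP against 5 counts in CILP. Vcam1 then had no counts in either group, so the sign of its value carries no meaning. Rnf146, a ubiquitin ligase gene, had 370, 0 and 0 CPM. Its call stood on the same single library. Of 27 cell cycle genes tested, Ccna2 was the only one called, against 0.374% of all genes tested. The median was -0.89, against -0.27 over all genes tested. Ccnd2, the cyclin D2 gene, had 696, 666 and 1422 CPM in ILCP and 55.5 to 933 in CILP (adjusted p = 0.0584).

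The remaining higher genes were close to the threshold. Ada (adenosine deaminase) had 0, 170 and 50.5 CPM in ILCP, and Cpne7 (a copine, which binds membranes in response to calcium) had 0, 158 and 118. Neither had a count in CILP, which makes them at least 22.3-fold and 30.1-fold higher, and both lost the call without replicate 2 (adjusted p of 0.376 and 0.243). Foxp4, a forkhead factor, had 4.9, 533 and 0 CPM in ILCP against at most 14.0 in CILP. Its fitted difference was -2.85 in batch 1 alone, where ILCP had no counts of it. Ifi27l2a, an interferon-inducible gene, had 237, 0 and 50.5 CPM in ILCP and at most 11.2 in CILP (adjusted p = 0.0446, and 0.484 without replicate 1). It was the 1 called among 17 interferon-stimulated genes tested, against 0.374% of all genes tested. Strn, Gramd3 and Ak4 had counts in at most 2 of the ILCP libraries, none in CILP, and adjusted p between 0.0309 and 0.0446.

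Igfbp4 (Entrez 16010, chr11:99040005-99052655), which binds insulin-like growth factors, was the clearest of the lower genes. ILCP had 49.4, 0 and 67.3 CPM, and CILP ran from 457 to 2657 CPM with a median of 1757. The highest ILCP library was below the lowest CILP library. The log2 difference was -5.29 ± 0.84 (adjusted p = 1.392e-05), -4.60 in batch 1 alone and -5.80 in batch 2 alone. ILC2P held counts in 1 of 8 libraries, at 28.8 CPM.

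Plac8 (Entrez 231507), a small cysteine-rich protein found in immune progenitors, had 188, 12.1 and 67.3 CPM in ILCP and 219 to 1487 in CILP (median 1126). The log2 difference was -3.49 ± 0.68, with an adjusted p of 2.684e-03. ILC2P averaged 111 ± 89.9 CPM, while CLP and α4β7+ CLP, the earlier lymphoid progenitors of the series, averaged 3822 and 3481 CPM. ILCP were not tested against those progenitors here.

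Bcl2 (Entrez 12043), which protects lymphocytes from apoptosis, had 311, 230 and 75.7 CPM in ILCP and 1042 to 2472 in CILP. The groups were well apart, with a log2 difference of -3.23 ± 0.72 (adjusted p = 9.758e-03). Its adjusted p was 0.0820 without replicate 2 and 0.122 without replicate 3 of ILCP, although its level was low in every ILCP library. ILC2P averaged 207 ± 141 CPM. Of 11 tested genes of the Bcl2 family, it alone passed, against 0.374% of all genes tested. Bad, a pro-apoptotic member, had 123, 133 and 84.1 CPM in ILCP and 11.2 to 91.5 in CILP (adjusted p = 0.739).

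Tmsb15a, a thymosin gene whose product binds actin, had no counts in the 3 ILCP libraries or the 8 ILC2P libraries and 182 to 1944 CPM in CILP. It was at least 73.6-fold lower in ILCP, against 3 counts over the ILCP group. Its adjusted p of 3.643e-03 moved to 0.0620 without ILCP replicate 1 and to 0.0551 without replicate 2, and DESeq2 gave 0.169. Fcer1g, the signalling chain shared by Fc and NK receptors, had 128, 0 and 0 CPM in ILCP and 315 to 1706 in CILP (log2 -3.90 ± 0.94, adjusted p = 0.0243), and did not pass without replicate 2 (0.240) or replicate 3 (0.168). Dhrs3, a retinaldehyde reductase, and BC035044 had no counts in ILCP and were at least 31.2-fold and 9.08-fold lower. Both were at 0 in a CILP library too, and their adjusted p of 0.0446 and 0.0399 went above 0.05 whichever ILCP library was left out.

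**Figure D4:**
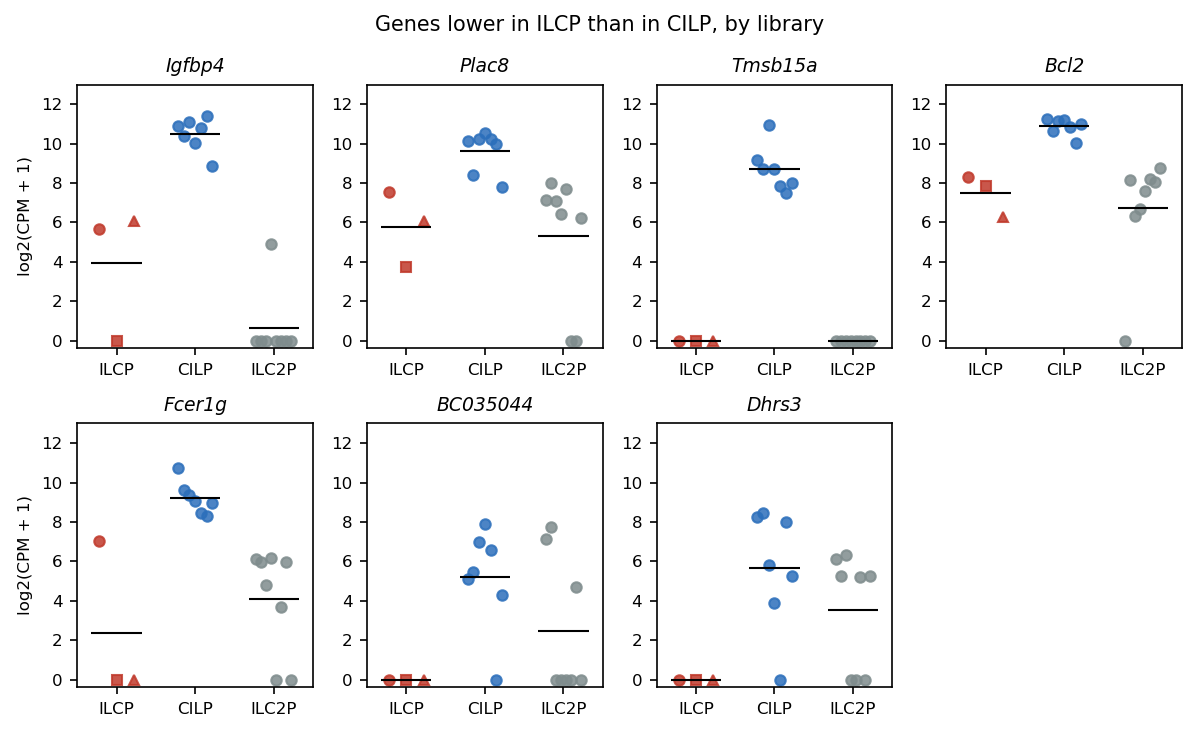
Levels of the 7 genes lower in ILCP than in CILP, as log2(CPM + 1) on the vertical axis, for ILCP (circle replicate 1, square replicate 2, triangle replicate 3), CILP and ILC2P, with the mean of log2(CPM + 1) as a black line. Igfbp4 is at 67.3 CPM or less in ILCP and at 457 or more in CILP, and Tmsb15a has no counts in ILCP or ILC2P.

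Sequences before the transcription start are shown for the 2 higher and the 2 lower genes of smallest adjusted p, since these genes carry the separation of the groups. Each is the 250 bases before the first listed RefSeq start on GRCm38.p6, written in the direction of transcription. For Rnf128, Il1rl1 and Igfbp4 this start lies inside the gene span given above. The sequence before the outer end of those spans was not searched. Capitals mark GATAA, the core bound by GATA factors, on either strand. The regions are chrX:139610370-139610619 (plus strand), chr1:40429320-40429569 (plus strand), chr11:99040994-99041243 (plus strand) and chr5:100572206-100572455 (minus strand).
Rnf128: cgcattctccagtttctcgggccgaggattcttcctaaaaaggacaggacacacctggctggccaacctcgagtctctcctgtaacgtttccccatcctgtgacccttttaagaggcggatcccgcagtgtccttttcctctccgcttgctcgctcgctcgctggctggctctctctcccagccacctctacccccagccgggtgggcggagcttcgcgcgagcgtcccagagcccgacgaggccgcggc
Il1rl1: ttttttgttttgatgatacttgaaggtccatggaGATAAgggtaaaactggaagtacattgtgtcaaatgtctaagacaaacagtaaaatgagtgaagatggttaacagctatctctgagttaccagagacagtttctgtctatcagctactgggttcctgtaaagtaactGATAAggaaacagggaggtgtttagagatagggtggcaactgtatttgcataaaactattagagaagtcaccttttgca
Igfbp4: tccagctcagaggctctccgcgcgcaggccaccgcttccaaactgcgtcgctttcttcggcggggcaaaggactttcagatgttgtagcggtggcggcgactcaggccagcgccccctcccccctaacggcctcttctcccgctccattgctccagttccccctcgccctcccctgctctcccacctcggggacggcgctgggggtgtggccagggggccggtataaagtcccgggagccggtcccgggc
Plac8: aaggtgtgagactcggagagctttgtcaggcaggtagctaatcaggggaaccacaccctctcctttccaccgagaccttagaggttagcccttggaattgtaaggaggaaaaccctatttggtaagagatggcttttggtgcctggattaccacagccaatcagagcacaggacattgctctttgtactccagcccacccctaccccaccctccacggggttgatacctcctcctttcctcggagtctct

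Il1rl1 held 2 matches to GATAA in this window, which 4.5% of all promoters of the table equalled or exceeded. RefSeq lists 2 starts for it, and for Plac8, and the first listed was used. Rnf128, Igfbp4 and Plac8 held no match in the windows shown. Of the genes higher in ILCP, 23 had an entry and 5 of these held GATAA, against 14.8% of 8482 tested genes with an entry and 23.0% of 27025 promoters in all. Of the 7 lower genes, 1 held it. TGANTCA, the AP-1 site, stood in 1 of the 23 and in 1 of the 7, against 4.0% of tested genes. TGTGGT, the RUNX core, stood in 1 of the 23 and in 1 of the 7 (Plac8, with 2 matches), against 11.3%. CTTTGAT, a TCF/LEF site, stood in none of either set, against 2.4%. All were searched on both strands, and CTTTGAT can share bases with GATAA.

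Transcription factors that guide innate lymphoid progenitors were described next. None of the 15 tested passed in either direction, against 0.374% of all genes tested. Their median log2 difference was -1.67, against -0.27 over all genes tested. With genes at 0 in a group set to their bound it was -1.58, against -0.2. Of the 15 fitted values, 13 were below 0 and 2 above, where 41.5% of all genes tested were above 0. In 4 of them, Lmo4, Tox, Zbtb16 and Tox2, every ILCP library was below every CILP library, which held for 1.01% of all genes tested.

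Lmo4, a LIM-only adaptor, had 854, 376 and 993 CPM in ILCP and 1683 to 3528 in CILP (log2 -1.78 ± 0.58, adjusted p = 0.181). Tox, needed for the earliest innate lymphoid progenitors, had 153, 84.8 and 58.9 CPM in ILCP and 337 to 930 in CILP (log2 -2.40 ± 1.06, adjusted p = 0.400). Zbtb16, the gene of PLZF, had 104, 0 and 25.2 CPM in ILCP and 186 to 525 in CILP (log2 -2.94 ± 1.31, adjusted p = 0.405). Tox2, a relative of Tox, had no counts in ILCP or ILC2P and 6.9 to 444 CPM in CILP (adjusted p = 0.188). The ILC2P means of Lmo4, Tox and Zbtb16 were 563, 33.7 and 7.4 CPM.

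Some regulators overlapped between the populations, with fitted differences below their standard errors. Bcl11b, required for group 2 cells, had 558, 158 and 724 CPM in ILCP and 160 to 920 in CILP (log2 -0.09 ± 0.75). Ets1 had 775, 666 and 841 CPM in ILCP and 309 to 3269 in CILP (log2 -0.25 ± 0.62). Others varied widely among the ILCP libraries. Id2 had 79.0, 12.1 and 1228 CPM in ILCP, and within CILP it had 79.6 to 675 in batch 2 and 1084 to 2286 in batch 1. Tcf7 had 548, 36.3 and 8.4 CPM in ILCP and 166 to 779 in CILP (log2 -1.40 ± 1.08, adjusted p = 0.679). Replicate 1 was within the CILP range of Tcf7 and the other ILCP libraries were below it.

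**Figure D5:**
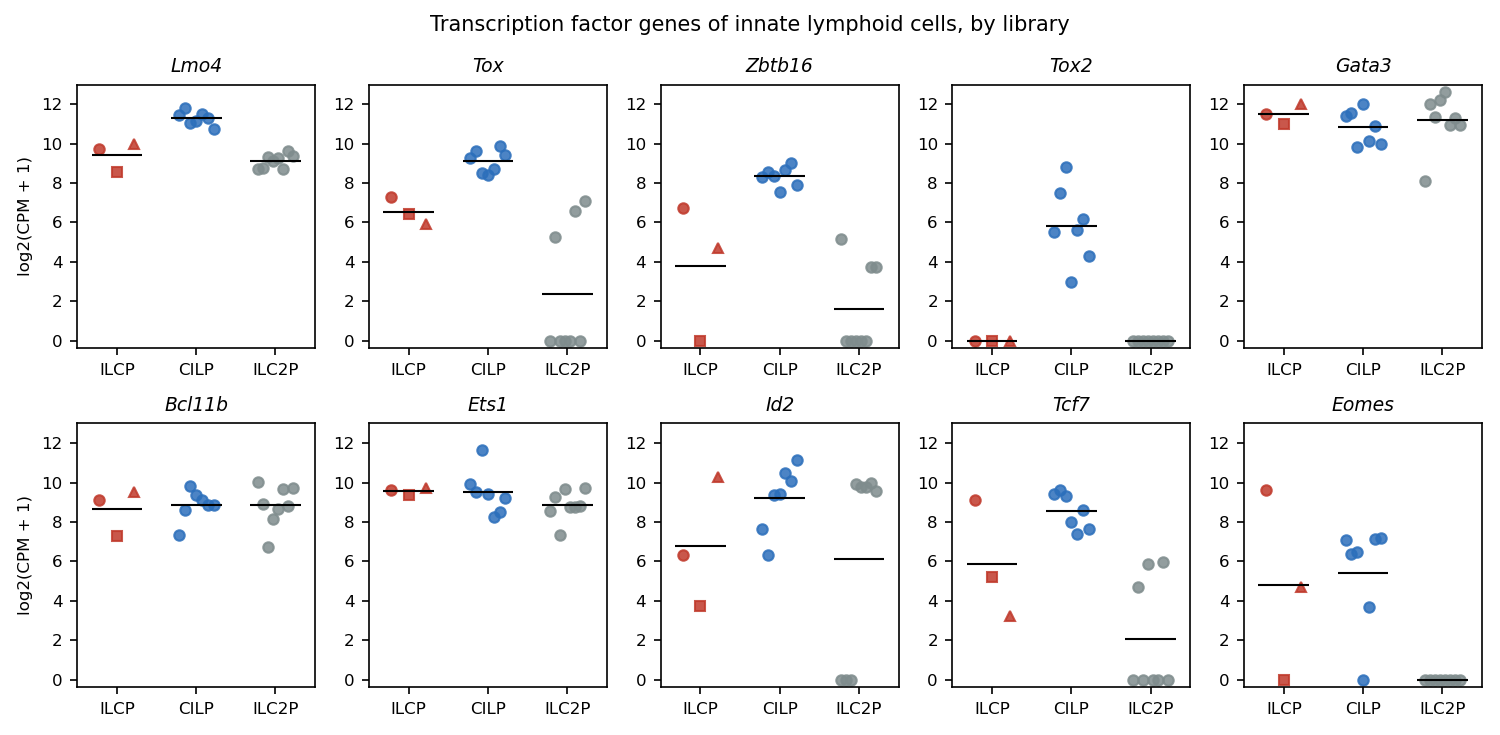
Levels of the transcription factors described in the text, as log2(CPM + 1) on the vertical axis, for ILCP (circle replicate 1, square replicate 2, triangle replicate 3), CILP and ILC2P, with the mean of log2(CPM + 1) as a black line. Gata3 overlaps between the groups, at 2060 to 4080 CPM in ILCP and 912 to 4180 in CILP, while Tox is at 153 CPM or less in ILCP and 337 or more in CILP.

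Genes of group 1 cells and NK cells were unevenly spread over the ILCP libraries. They took 0.556%, 0.011% and 0.014% of the counts in replicates 1, 2 and 3, and 0.206% to 0.524% in CILP. Replicate 1 was above every CILP library and the other 2 were below them all. The chemokine gene Xcl1 gave 880 of the 1576 counts in replicate 1, and without it that share was 0.246%, against 0.206% to 0.494% in CILP, so that replicate 1 lay within the CILP range. Xcl1 was singled out after its values were seen. None of 15 tested genes passed, against 0.374% of all genes tested. Their median was -1.93, against -0.27 over all genes tested. Klrd1, the gene of the NK receptor CD94, had 1091, 0 and 0 CPM in ILCP and 54.9 to 394 in CILP. Eomes, a T-box factor of NK cells, had 790, 0 and 25.2 CPM in ILCP and 0 to 146 in CILP. Ccl5, a chemokine of cytotoxic cells, had 1170, 60.6 and 8.4 CPM in ILCP and 1097 to 4187 in CILP (adjusted p = 0.450).

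None of 12 tested genes of group 3 cells passed, against 0.374% of all genes tested. At that share most lists this small hold no called gene, so a list without a call says little. Kit, the stem cell factor receptor and a member of that list, had 29.6, 12.1 and 67.3 CPM in ILCP and 83.1 to 484 in CILP, with no overlap and an adjusted p of 0.335. All ILCP libraries lay below all CILP libraries for 1.01% of genes tested. Of 15 tested genes of stem and multipotent progenitors, none passed. Of 12 genes of the B lineage and of receptor recombination, none passed. Both stand against the same 0.374% of all genes tested. Dntt, the gene of the enzyme TdT, had 4.9, 24.2 and 42.1 CPM in ILCP and 0 to 1653 in CILP.

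Cytokine receptors gave 2 higher genes of 30 tested, Il1rl1 and Il2ra, against 0.31% of all genes tested. Il2rg, the common gamma chain, did not overlap, with 676 to 1043 CPM in ILCP and 201 to 544 in CILP, but did not pass (adjusted p = 0.575). Il6ra, the IL-6 receptor, had 34.6, 48.5 and 33.7 CPM in ILCP and 7.4 CPM in 1 CILP library (adjusted p = 0.249). Of the genes that respond to cytokine signals, Cish had 59.3, 582 and 84.1 CPM in ILCP and 0 to 55.8 in CILP (adjusted p = 0.112). Pim1 had 212, 800 and 194 CPM in ILCP and 0 to 138 in CILP (0.206). Socs1, an inhibitor of cytokine signalling, had 0, 36.3 and 50.5 CPM in ILCP and 91.5 to 452 in CILP (0.359). None of 14 genes of that list passed, against 0.374% of all genes tested in either direction. Cish and Pim1 lay above CILP and Socs1 below it in every ILCP library. Over all genes tested this held for 1.03% above and 1.01% below.

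Homing receptors gave none called of 19, against 0.374% of all genes tested. Cxcr6, a chemokine receptor of innate lymphoid progenitors, had 439, 509 and 488 CPM in ILCP and 11.9 to 112 in CILP. The ILCP libraries were close to each other and all above CILP, with a log2 difference of 2.87 ± 0.76 and an adjusted p of 0.0635. Over all genes tested, every ILCP library lay above every CILP library for 1.03%. Ccr9, which guides cells to the gut, had 158, 509 and 1397 CPM in ILCP and 0 to 167 in CILP (log2 3.29 ± 0.87, adjusted p = 0.0681). ILC2P averaged 680 CPM of Cxcr6 and 955 of Ccr9.

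Genes of the T lineage gave none called of 17, against 0.374% of all genes tested. Trbc1, a constant gene of the T cell receptor beta chain that shares sequence with Trbc2, depended on batch. It had 622 and 933 CPM in ILCP and 2332 to 5495 in CILP in batch 2, against 42.1 CPM in ILCP and 83.1 to 91.5 in CILP in batch 1. ILCP was below CILP in both batches, and the difference did not pass (adjusted p = 0.333). Lck, a kinase of T cell signalling, had 202, 60.6 and 101 CPM in ILCP and 201 to 587 in CILP (adjusted p = 0.484). Of 12 mitochondrial transcripts, none passed and all had fitted values below 0. Among all genes tested, 0.374% passed and 41.5% had fitted values above 0. They took 0.673% to 1.428% of the counts in ILCP and 1.064% to 2.570% in CILP.

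Markers of other cell types were counted as well. Myeloid markers took at most 0.012% in any ILCP library and 0.158% in any CILP library. Mast cell, basophil and eosinophil markers took at most 0.019% in ILCP and 0.516% in CILP. The highest value was CILP replicate 5, where Mcpt8, a basophil protease gene, had 3586 CPM, and the other 6 CILP libraries had at most 0.059%. Without CILP replicate 5, 24 genes were higher and 6 lower in ILCP. Dendritic cell markers took at most 0.084% in ILCP and 0.118% in CILP. Plasma and mature B cell markers took at most 0.042% in ILCP and 0.092% in CILP, and mature T cell markers at most 0.036% and 0.142%. None of these lists had a called gene, against 0.374% of all genes tested. The myeloid genes Mpo, Ltf and Itgam were at 0 in all 3 ILCP libraries, while S100a8 had 4.9 to 121 CPM in them. Lyz2 and S100a9 reached 49.4 and 33.7 CPM in an ILCP library. In CILP, S100a8, Lyz2 and S100a9 reached 931, 55.0 and 819 CPM. The part of the erythroid and NK shares of replicate 1 in the results above was not tested, beyond the counts given without that library.

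ILCP were last set against ILC2P, with the same ILCP libraries. No gene passed as lower (0%) and 53 passed as higher (0.483%) in edgeR. At an unadjusted p under 0.05, 299 genes (2.73%) were lower, and DESeq2 called 36 higher and 15 lower. Replicate 1 held the highest ILCP value for 38 of the 53, while 28 of them had no counts in replicate 2 and 22 had counts in all 3 libraries. Without replicate 1, 7 genes passed, of which 6 were among the 53, and without replicate 3, 106 passed. Each ILCP library was above each ILC2P library for 15 of the 53. These 53 were selected as higher, and the share over all genes tested was not counted. The median log2 difference over all genes was 0.21, and -0.06 with DESeq2's size factors, under which 21 passed.

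The genes named here were chosen from the lists after their values were seen. Myb, a factor of immature blood cells, had 153, 84.8 and 67.3 CPM in ILCP and 0 to 34.5 in ILC2P (log2 3.89, adjusted p = 0.00204). It was present in every ILCP library, above all of ILC2P. Sox4, needed early in lymphoid development, had 435, 0 and 185 CPM in ILCP and at most 14.8 in ILC2P. Il18r1 had 262, 0 and 278 CPM in ILCP, against at most 95.4 in ILC2P. Sox4 and Il18r1 were at 0 in replicate 2 of ILCP.

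Klrd1, Nkg7, Cd7, Eomes and Id3 also passed against ILC2P, and replicate 1 had the highest ILCP value of each. Nkg7, a granule gene of cytotoxic cells, had 198, 0 and 58.9 CPM in ILCP and none in ILC2P. Id3, an inhibitor of E proteins, had 909, 0 and 0 CPM in ILCP and 28.4 CPM in 1 CILP library. Cd7, a T and NK cell surface gene, had 281, 0 and 0 CPM in ILCP. Neither had a count in ILC2P.

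The 6 higher genes of smallest adjusted p in ILCP against CILP did not pass against ILC2P. The fitted ILCP minus ILC2P log2 difference was -0.69 for Rnf128, 0.24 for Il1rl1, -0.17 for Il2ra, -0.71 for Ly6a, 0.23 for Samhd1 and -0.20 for Cysltr1, with adjusted p of 0.758 to 1.0. Other higher genes lay further from ILC2P, with 6.19 for Hba-a1 (adjusted p = 0.0441), 5.58 for Dmtn (0.0904), 5.17 for Rnf146 (0.129) and 3.66 for Cxcl2 (0.367). For the lower genes it was 3.16 for Igfbp4 (adjusted p = 0.0679), -0.11 for Plac8 and -0.03 for Bcl2. A p above the threshold does not show that the levels were the same.

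The series holds 1 ILCP library from an Id2-/- mouse, with 111413 counts, and it was not tested. It had 252 CPM of Ly6a, 18.7 of Il1rl1 and none of Rnf128, Il2ra or Cysltr1. The 3 wild-type ILCP libraries had at least 201.9 CPM of each of these genes. Markers of red cell and platelet precursors took 2.062% of the counts in the Id2-/- library (exact binomial 95% interval 1.979% to 2.147%) and myeloid markers took 1.572% (1.499% to 1.646%).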

How the data were processed

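CEL-seq libraries of sorted cells were deposited as raw counts per Entrez gene, in 2 tables, 1 per batch. The submitters' processing notes name CASAVA 1.8.2, featureCounts, limma and edgeR (3.8.2 and 3.22.0), and build mm10; an aligner is not named in the sources used. No molecular identifiers are mentioned, and intervals cover counting error only. Symbols and coordinates came from RefSeq GRCm38.p6, the same assembly (25275 of 27179 identifiers matched, 92.99%), and 0 value columns lacked a sample.

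Of 70 samples, 4 technical repeats were added to their libraries (2 to a CILP library). The 12 controls, 6 libraries labelled Nfil and 1 CILP library marked as an outlier by the submitters were not fitted, leaving 47 wild-type, Id2-/- and TCF7-/- libraries. Replicate numbers follow accession order and only name libraries. edgeR 4.0.16 (R 4.3.3) filtered genes by group (filterByExpr with a minimum count of 10 and a minimum total of 15), scaled totals by TMM, and fitted a robust quasi-likelihood model with a mean per group and a batch term (35 residual degrees of freedom, biological coefficient of variation 109.7%). Adjusted p are Benjamini-Hochberg values over 10972 genes. The standard error is the log2 difference over the root of F. Folds against a group at 0 are bounds against 3 counts over that group, and with 1 to 3 counts a pooled ratio has an exact 95% interval.

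Genes named were the called genes with a symbol (unnamed models passed over), 15 regulators, and up to 4 members per list by adjusted p. Il2rg, Fosb, Il5, Il13 and the genes named against ILC2P were added after their values were seen. The 25 lists came from general knowledge, and members, lists and rules were chosen with earlier results of these data known. Alternatives were DESeq2 1.42.0, its size factors, limma-voom (limma 3.58.1), no filter, no batch term, each batch, fewer groups, the outlier put back, the fit without shallow libraries or repeats, and the fit without each single library. The steps were tested on simulated counts, with 8678 genes tested in ILCP against CILP. Of 50 genes raised 64-fold in ILCP 46 were called, and of 50 lowered 64-fold 23 were. At 8-fold the numbers were 20 of 50 raised and 8 of 50 lowered. Of 107 calls in all, 10 were of unchanged genes. A few genes chosen by these rules are left unreported, but every test and count includes them.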

Additional observations from a re-analysis of the deposited data

Results flagged for a closer look

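In 8 of the 20 called genes examined over the 7 CILP libraries, 1 library lay far from the others. The criterion marks about 1 in 20 groups by chance if values are normally distributed, and CPM values with many zeros are not, so the share cannot be set against that rate. Tmsb15a had 1943.7 CPM in CILP replicate 3, with 572.5 as the next value. Fcer1g had 1706.4 CPM in CILP replicate 1, with 775.4 as the next. In 6 genes higher in ILCP, 1 CILP library held low counts where the others held fewer or none. These were Lztfl1 with 91.5 CPM in replicate 7, Gadd45b with 31.7 and Ffar2 with 23.8 in replicate 3, Ptgir and Ccna2 with 20.7 each in replicate 4, and Foxp4 with 14.0 in replicate 6. Groups of 3, such as ILCP, were not examined this way.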

How the results depend on the processing

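ILCP against CILP gave 41 calls, of which 82.9% were higher. DESeq2 gave 92 (57.6% higher; 25 genes were called by both tools), limma-voom 172 (48.3% higher), no filter on low counts 80, batch 1 alone 26 (65.4% higher) and batch 2 alone 8. Only the 2 compared groups gave 34, of which 67.6% were higher. Leaving out 1 library gave 19 (without ILCP replicate 2) to 52 (without ILCP replicate 3), and 26 without CILP replicate 2. The other alternatives gave 31 to 58. ILCP against ILC2P gave 53 calls. DESeq2's size factors gave 21, limma-voom 9, no filter 115, no batch term 35, batch 1 alone 10, batch 2 alone 9, and 27 with 2 shallow libraries left out. With only the 2 compared groups 0 of 2377 genes passed in edgeR, and 64 had an unadjusted p under 0.05. Leaving out 1 library gave 7 (without ILCP replicate 1) to 106 (without ILCP replicate 3). Without ILC2P replicates 2, 3, 4, 6 and 7 the counts were 25, 27, 32, 25 and 33. Of the called genes named, 4 turned in sign without ILCP replicate 1, and none of these has counts in the other ILCP libraries. Among them, Tspan33 and Vcam1 have no counts in CILP either, so their sign in that fit carries no meaning. Hba-a1 and Ccna2 have 2 and 5 counts over the CILP libraries, and their sign in that fit rests on those few counts. With 1 library left out, the log2 difference ran from -0.46 to 10.58 for Hba-a1, from -0.74 to 7.54 for Tspan33, from -2.65 to 6.23 for Ccna2 and from -0.63 to 7.0 for Vcam1. Foxp4 was at -2.85 in batch 1 alone, where ILCP had no counts of it. The cause of the other shifts was not tested. Over all alternatives the called genes kept their direction and call in 564 cases, lost the call in 215 and turned in 5. No paired analysis was possible because replicate numbers follow accession order and the labels pair no libraries. With 3 ILCP libraries of 81093 to 283547 counts, a gene with 3 counts over the group stands at 7.43 CPM, so lower levels were not measurable.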
